A study of Mus musculus with 6 samples.

Results

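Accessible chromatin was described at 15354 promoter peaks that were present both with OTX2 and after its loss, out of 70494 peaks in the table of all peaks (21.8%). A peak was a member where it overlapped by at least 1 base a peak of the DMSO list and a peak of the dTAG13 list, and where the authors' annotation placed it within 1 kb of a gene's start (the label Promoter). The members were therefore chosen by measured values, the presence of a called peak in each group, and every fold change below comes from those same libraries. Their fold changes, signal strengths and lengths are given as a description, with no test of the set. They made up 71.0% of the 21639 promoter peaks of the table and were assigned by the authors to 12368 genes. The other promoter peaks lay in the DMSO list only (4538) or the dTAG13 list only (1747), and none lay outside both lists.

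The cells were definitive endoderm made from mouse epiblast stem cells of the line 7H OTX2-dTAG-EGFP, of BL6/129 hybrid background, in which OTX2 carries a degradation tag and a fluorescent protein. Differentiation took 16 h in CHIR (3 uM) with Activin A (40 ng/ml), followed by 24 h in LDN (100 nM) with Activin A (100 ng/ml). From primitive streak stage onward, cells were kept for 24 h with dTAG13, a small molecule that directs tagged proteins to the proteasome, or with its solvent DMSO. ATAC-seq was run on live DAPI-sorted cells, 50000 per library, with 3 libraries per group. Both groups carried the tagged allele and received the same differentiation factors, so by the labels the groups differ in dTAG13 alone and the tag itself has no untagged comparison. The 3 libraries per group are technical replicates by the series text, from 1 line, and separate cultures may vary more than the deposited standard errors show. The table holds 1 mean and 1 fold change per peak and no value per library, and the depth of each library is unknown.

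ATAC-seq uses a transposase that inserts adapters into DNA not covered by nucleosomes. Promoters of many mammalian genes, above all those in CpG islands, are kept free of nucleosomes by general transcription factors such as SP/KLF proteins, NFY, ETS factors and NRF1, and they are open in most cell types. Cell-type-specific factors bind more often at distal enhancers. OTX2 is a homeodomain factor of the anterior epiblast, anterior endoderm and forebrain that binds short sequences ending in ATTA, and GATA4 and GATA6 are zinc finger factors of the endoderm.

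The sequences of some called members are shown first, because the content of these windows is compared with that of other peaks below. Each window is 200 bases of mm10 centred on the peak, read 5′ to 3′ on the plus strand. The letters GGATTA on either strand were counted as an OTX sequence. For the endoderm zinc finger factors the letters were AGATAA, called the GATA sequence below. Of the 31 members called lower with dTAG13, 12 held at least 1 of these, and 5 of the 12 are printed with the matches in capitals. The Gm626 window (chr14:33471472-33471671) is centred 124 bases upstream of the annotated start of Frmpd2. The Gm14055 window (chr2:137288277-137288476) lies 126 bases upstream of that lincRNA and holds 1 sequence of each kind. The Dpm1 window (chr2:168214098-168214297) lies 937 bases upstream of the gene for a dolichol-phosphate mannose synthase subunit. The windows of Impg1 (chr9:80465523-80465722), a retinal matrix proteoglycan, and Lrig1 (chr6:94656200-94656399), a restrainer of growth factor receptors, lie 142 and 775 bases upstream.
Gm626: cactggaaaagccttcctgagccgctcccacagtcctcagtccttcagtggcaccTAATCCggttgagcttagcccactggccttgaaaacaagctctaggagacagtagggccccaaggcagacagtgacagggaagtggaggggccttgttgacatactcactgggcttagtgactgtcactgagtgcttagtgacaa
Gm14055: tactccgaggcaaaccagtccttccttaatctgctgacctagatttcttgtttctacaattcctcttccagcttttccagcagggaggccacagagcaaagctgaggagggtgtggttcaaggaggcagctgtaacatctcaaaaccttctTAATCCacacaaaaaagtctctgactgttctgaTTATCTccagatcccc
Dpm1: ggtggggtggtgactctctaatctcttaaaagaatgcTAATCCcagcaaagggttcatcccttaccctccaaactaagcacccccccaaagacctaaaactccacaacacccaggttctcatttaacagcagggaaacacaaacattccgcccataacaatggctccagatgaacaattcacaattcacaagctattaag
Impg1: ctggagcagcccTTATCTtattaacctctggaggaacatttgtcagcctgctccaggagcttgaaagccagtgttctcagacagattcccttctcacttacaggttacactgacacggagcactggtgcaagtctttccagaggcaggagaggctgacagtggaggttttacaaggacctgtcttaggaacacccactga
Lrig1: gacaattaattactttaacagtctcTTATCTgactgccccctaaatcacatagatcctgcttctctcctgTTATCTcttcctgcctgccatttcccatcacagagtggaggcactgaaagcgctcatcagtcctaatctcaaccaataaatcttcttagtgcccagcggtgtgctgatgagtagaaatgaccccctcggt

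Members called higher with dTAG13 held the NRF1 sequence (GCGCATGC) or the TEAD sequence (GGAATG) more often than the uncalled members, and 3 such windows are printed with those matches in capitals. Papss1 (chr3:131564585-131564784), which encodes an enzyme that makes the sulfate donor of the cell, carries the NRF1 sequence. Zfp119b (chr17:55945238-55945437) encodes a zinc finger protein and Prdm8 (chr5:98180181-98180380) a PR-domain factor. Both carry the TEAD sequence. The Mixl1 window (chr1:180697232-180697431), from a homeobox gene of the primitive streak and endoderm, is shown with its SP/KLF (GGGCGG) and NFY (CCAAT) sequences in capitals because it was the called promoter among the endoderm markers.
Papss1: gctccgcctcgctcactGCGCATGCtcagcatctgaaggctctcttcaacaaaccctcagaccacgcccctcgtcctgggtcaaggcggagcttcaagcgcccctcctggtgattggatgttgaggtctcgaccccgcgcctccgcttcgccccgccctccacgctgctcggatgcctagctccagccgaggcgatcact
Zfp119b: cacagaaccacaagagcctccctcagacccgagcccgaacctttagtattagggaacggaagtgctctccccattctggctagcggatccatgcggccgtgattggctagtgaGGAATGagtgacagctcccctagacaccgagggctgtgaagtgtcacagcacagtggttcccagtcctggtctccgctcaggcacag
Prdm8: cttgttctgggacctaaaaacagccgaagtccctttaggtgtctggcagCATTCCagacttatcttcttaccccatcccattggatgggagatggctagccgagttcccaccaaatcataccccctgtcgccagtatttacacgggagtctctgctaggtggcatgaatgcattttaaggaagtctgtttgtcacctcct
Mixl1: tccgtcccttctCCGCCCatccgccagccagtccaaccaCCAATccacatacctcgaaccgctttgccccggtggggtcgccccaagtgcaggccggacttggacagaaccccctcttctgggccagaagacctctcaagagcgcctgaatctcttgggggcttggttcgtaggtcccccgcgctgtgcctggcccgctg

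The fold changes of the shared promoters centred near 0. In the authors' deposited table the log2 fold change of dTAG13 over DMSO had a median of 0.10 over the members, with quartiles of -0.17 and 0.37 and a range from -3.19 to 3.12. It was positive for 9294 members (60.5%) and reached a size of at least 1, a doubling or halving, at 546 (3.56%). The median of all peaks was -0.18, that of promoter peaks of the DMSO list only was -0.80, and that of promoter peaks of the dTAG13 list only was 1.21. Peaks of both lists outside promoters (18606) had a median of 0.08. Their centre was thus nearly that of the shared promoters, and they spread more widely. That the sets found in 1 list lie to either side is set by the way they were chosen.

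**Figure D1:**
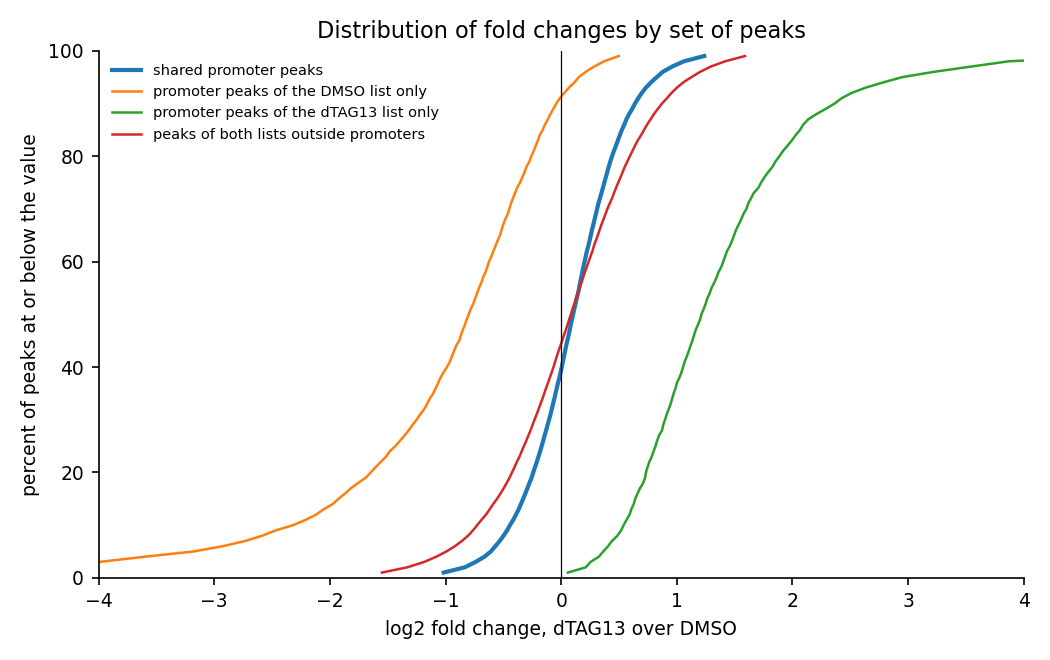
Percent of peaks (vertical axis) at or below each log2 fold change of dTAG13 over DMSO (horizontal axis) for shared promoter peaks and 3 other sets, from the 1st to the 99th percentile. The curve of the shared promoter peaks is the steepest of the 4 and crosses its midpoint at 0.10, between the curves of the promoters found in 1 list (midpoints of -0.80 and 1.21).

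A peak was called changed where the adjusted p-value of the deposited test (fold change over its standard error against a normal distribution, Benjamini-Hochberg over all tested peaks) was under 0.05. The authors' deposited table has an adjusted p-value for 15346 members, and 31 of these (0.202%) passed as lower with dTAG13 and 180 (1.17%) as higher, 211 together (1.37%). Over all 69128 tested peaks the shares were 3.79% lower, 1.47% higher and 5.26% in either direction. Nothing is read from the difference between these shares, because a peak had to be found in both groups to be a member. Higher calls made up 85.3% of the members' calls, and this split depended on the zero point: it was 96.7% with the fold changes centred on the median of all peaks, 60.9% with the median of all shared peaks and 57.2% with the members' own median. An unadjusted p under 0.05 was reached by 1422 members. When a member had to share 50% of its length and of the listed peak's length with both lists, 12 of the 31 lower and 150 of the 180 higher calls were kept.

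Small changes could be bounded at a minority of the members. The 95% interval of the log2 fold change, computed here from the deposited standard error, lay wholly within 1 of 0 at 6811 members (44.4%). At the other members a doubling or halving lies inside the interval or the estimate exceeds it. With the median standard error of 0.38, a member needed a log2 fold change of 1.15 (2.21-fold) to be called. Uncalled members are therefore not shown to be unchanged.

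**Figure D2:**
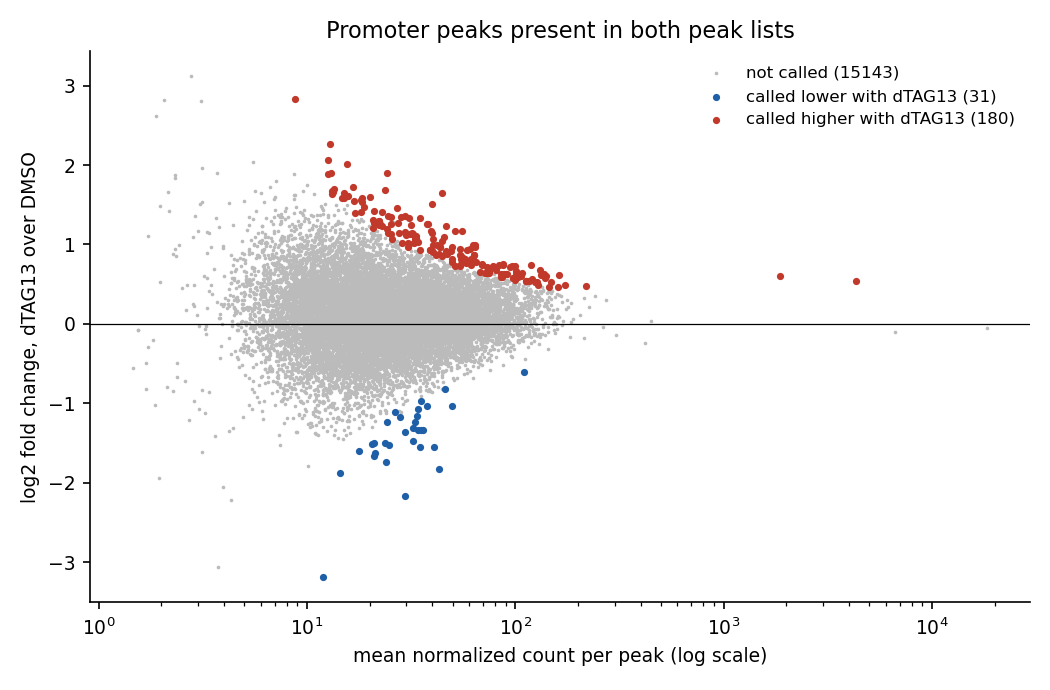
Log2 fold change of dTAG13 over DMSO (vertical axis) against the mean normalized count (horizontal log axis) of the 15354 members, 1 point per peak, with called members coloured. The 31 lower calls lie mostly at middle signal, whereas 67 of the 180 higher calls fall in the highest decile of signal. The median standard error is lowest in that decile (0.21).

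Shared promoters were strong and long peaks, which is part of how they came to be found in both lists. Their median mean normalized count was 23.02 (quartiles 13.97 and 39.5), against 6.02 and 5.89 for promoter peaks of the DMSO and dTAG13 lists only and 10.6 for shared peaks outside promoters. Their median length was 231 bases, against 95, 82 and 167. When all promoter peaks were ordered by mean count into 5 equal groups, members made up 12.9% of the weakest group, 52.6% and 90.2% of the next ones, 99.1% of the fourth and 99.98% of the strongest. Members held 51.1% of the summed mean normalized count of the whole table. At the edge of the rule, the members with the least overlap with 1 of the lists shared 59 bases with it (Fiz1, Gipr, Gm15816 and Kmt2c), and the nearest excluded promoter peaks lay 51 bases from a peak of the list they missed (Btaf1 and a pair at Gm25070).

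Several of the strongest members lay next to ribosomal RNA genes or in repeats. The peak assigned to the lincRNA locus Gm26917 on chromosome 17 had a mean normalized count of 18403 and a deposited log2 fold change of -0.05 (SE 0.02, adjusted p 0.177). Its error was so small that it was called under each of the 5 centrings, with a positive sign (0.13) for the all-peak median and a negative one for the others. Its neighbour AY036118, whose nearest annotated start is that of a ribosomal RNA gene, had a mean count of 6652 and a deposited log2 fold change of -0.10 (SE 0.04, adjusted p 0.0781). The predicted genes Gm10800 and Gm10801 on chromosome 2 followed with 4336 and 1856. They had the smallest p-values among the members called higher, at log2 fold changes, by the authors' deposited table, of 0.54 for Gm10800 (SE 0.06, adjusted p 2.48e-16) and 0.60 for Gm10801 (SE 0.07, adjusted p 2.58e-15). Of the 200 bases at the centre of the Gm10800 peak, 97.0% were soft-masked as repeats, and for Gm10801 29.5%. Reads of such copies may be placed at 1 of several loci, so these peaks are uncertain. The 4 strongest members held 6.26% of the members' summed count.

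The members sat close to annotated starts. The midpoint of the median member lay 64 bases from the nearest GENCODE start, 9728 members (63.4%) lay within 100 bases of one, and 68.5% lay upstream. The authors' promoter label and GENCODE agreed within 1 kb for 15200 members (98.997%). Promoters with starts on both strands accounted for 3393 members (22.1%), with a median log2 fold change of 0.12 beside 0.10 for the rest. Lower calls were split over positions: 12 lay over 100 bases upstream, 13 within 100 bases and 6 over 100 bases downstream. Of the higher calls, 114 lay within 100 bases of a start.

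Most genes had a single member. One shared promoter peak was assigned to 9818 genes, and 2550 genes had at least 2, with 5536 members in all. Within such a gene the fold changes of its members differed by a median of 0.40 on the log2 scale. Among these genes, 56 had a called member, 1 had every member called (the predicted gene Gm19426, with both peaks higher), and none had calls in both directions.

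CpG content separated the members called lower from the rest. Over 500 bases around the midpoint, 10370 members (67.5%) were CpG-rich (observed over expected CpG of at least 0.6 with GC of at least 55%), 3056 (19.9%) intermediate and 1928 (12.6%) CpG-poor (a ratio under 0.4). The median ratio was 0.76 for the members, 0.54 and 0.61 for the promoter peaks found in 1 list and 0.21 for shared peaks outside promoters. Of the 31 members called lower, 20 were CpG-poor, 8 intermediate and 3 CpG-rich (Sema6d, Ssh3 and Dbil5). The 180 called higher followed the members more closely, with 104 CpG-rich, 46 intermediate and 30 CpG-poor. As a share of each class, lower calls were 1.04% of CpG-poor, 0.262% of intermediate and 0.0289% of CpG-rich members, and higher calls were 1.56%, 1.51% and 1.003%. CpG-poor members were also weaker, with a median mean count of 12.6 against 27.4 for CpG-rich ones. With the fold changes centred within deciles of GC content over all peaks, 16 of the 31 lower calls were kept among 23, and CpG-poor members were 30.4% of these in place of 64.5%.

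**Figure D3:**
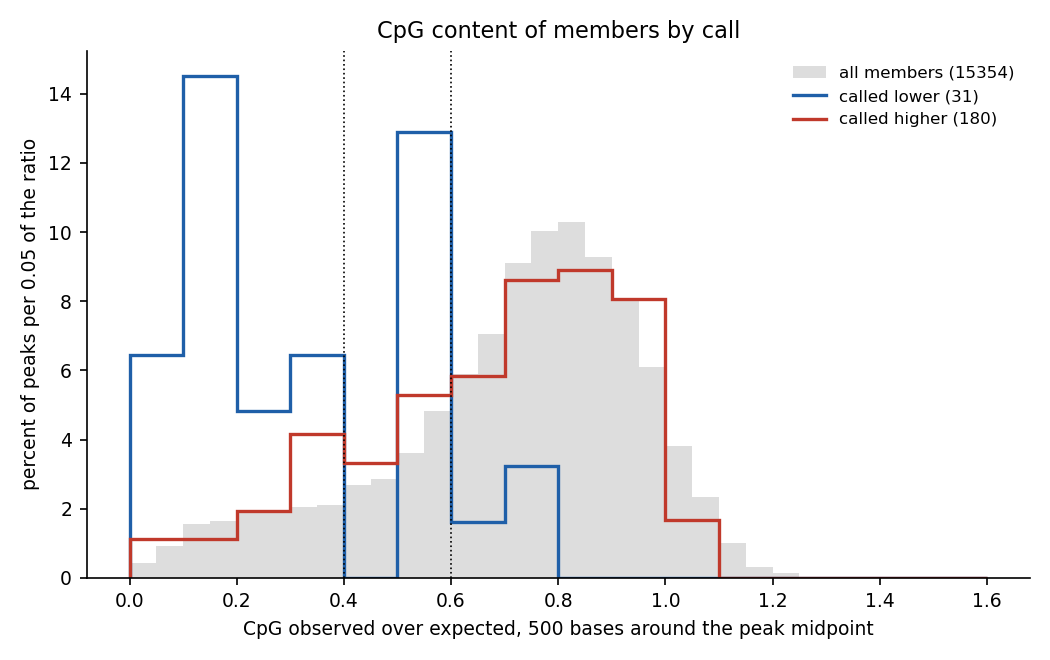
Distribution of the CpG observed over expected ratio (horizontal axis) as percent of peaks per 0.05 of the ratio (vertical axis) for all members (grey), the 31 called lower (blue) and the 180 called higher (red). Dotted lines mark the limits of 0.4 and 0.6. The members called lower gather to the left of the 0.4 line and between 0.5 and 0.6, and those called higher follow the grey distribution.

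Short sequences within 100 bases of the midpoint were counted on both strands as a description, and matches of different motifs may overlap. Shared promoters held general promoter sequences. The SP/KLF sequence was present in 61.6% of members and 12.9% of shared peaks outside promoters, the NFY sequence in 32.2% and 23.5%, the ETS sequence (CCGGAAG) in 13.5% and 1.698%, and the NRF1 sequence in 631 of the 15354 members and 0.559%. Sequences of tissue factors went the other way, with OTX in 2.81% of members and 7.09% of shared peaks outside promoters, and GATA in 3.63% and 19.2%. The OTX sequence written backwards (ATTAGG) was in 2.70% and 7.56%, so the low share at members was not particular to OTX. Among all RefSeq promoters, windows of 300 bases on the same build, the shares were 35.7% for SP/KLF, 8.86% for ETS, 2.71% for NRF1, 7.06% for OTX and 11.2% for GATA. The GC content of members was higher (median 65.0%, against 52.0% outside promoters), and these shares move with it. Weighted to the members' GC content, shared peaks outside promoters held the SP/KLF sequence in 48.1%, NFY in 19.5%, ETS in 3.41%, NRF1 in 1.64%, OTX in 3.99% and GATA in 6.47%. They held the backward OTX sequence in 3.59% by the same weighting.

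Members called lower held OTX and GATA sequences more often than members as a whole. The OTX sequence was found in 5 of 31 (16.1%, 95% Wilson interval over peaks 7.09 to 32.6), and the 5 were Gm626, Gm14055, Dpm1, Gm44772 and Stk32a. The GATA sequence was found in 9 of 31 (29.0%). Within 50 bases of the midpoint, in place of 100, the members with either sequence numbered 5 in place of 12. Uncalled members, weighted to the GC content of those called lower, held them in 4.92% and 8.84%. The OTX sequence written backwards (ATTAGG) was in 12.9% of the members called lower and 4.78% of the weighted uncalled members. The OTX share was hardly set apart from this. The backward sequence keeps the letters ATTA and can overlap an OTX match, as in the Gm626 window. It is therefore not an independent control for base composition, and nothing is concluded from how near the shares are. Seen from the other side, 431 members held the OTX sequence, of which 5 were called lower and 1 higher, and their median log2 fold change in the authors' deposited table was 0.04. With the fold changes centred within GC deciles, the GATA share of the lower calls was 17.4% and the OTX share 13.0%.

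Members called higher held NRF1 and TEAD sequences at higher shares. The NRF1 sequence was in 14 of 180 (7.78%), the ETS sequence in 32 (17.8%) and the TEAD sequence in 23 (12.8%), where GC-weighted uncalled members had 3.91%, 13.4% and 7.72%. For ETS that value lies inside the 95% Wilson interval of the called members (12.9 to 24.0). None of the 31 members called lower held the NRF1 or the ETS sequence, which at this number allows a share of up to 11.03% by the Wilson interval. The TEAD sequence was in 4 of the 31 members called lower (12.9%), where GC-weighted uncalled members had 9.47%. The 12.9% is near the 12.8% of the members called higher, so TEAD did not set the directions apart. Of the 180 members called higher, 1 held the OTX sequence.

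**Figure D4:**
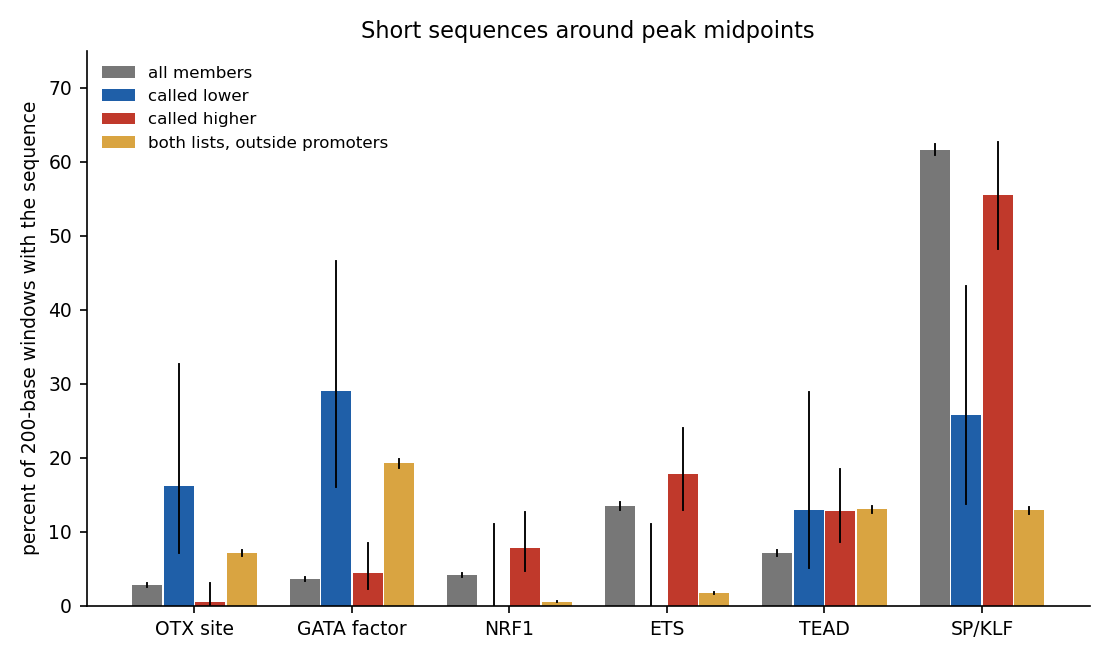
Percent of 200-base windows (vertical axis) that hold each short sequence, for all members, members called lower, members called higher and peaks of both lists outside promoters. Bars are shares and black lines 95% Wilson intervals over peaks. The blue bars for OTX (16.1%) and GATA (29.0%) rise above the grey bars of all members (2.81% and 3.63%), with wide intervals.

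The members that fell furthest lay at genes of varied function. The group levels that follow are normalized counts derived here from the deposited mean and fold change, with no value per library. At Gm626 the level was 48.5 with DMSO and 10.8 with dTAG13, which the authors' deposited table gives as -2.17 on the log2 scale (SE 0.38, adjusted p 2.15e-05). The antisense transcript 1700042O10Rik went from 67.5 to 19.1, and the authors' deposited table gives it the smallest adjusted p of the lower calls (2.89e-06, log2 fold change -1.82, SE 0.30). Both promoters thus kept a peak in each list while losing most of their signal. Gm14055 went from 37.1 to 11.1 and lost its call with GC centring (adjusted p 0.0815). Impg1 went from 51.9 to 17.7, and in the authors' deposited table its log2 fold change was -1.55 (SE 0.33, adjusted p 0.000828). Stk32a, a serine/threonine kinase gene, went from 47.6 to 17.2. Dpm1 went from 52.0 to 20.5. Sema6d, a transmembrane semaphorin of axon guidance, had a deposited log2 fold change of -1.33 (SE 0.32, adjusted p 0.00340). Lrig1 went from 34.9 to 12.4, and with GC centring neither Dpm1 (adjusted p 0.172) nor Lrig1 (adjusted p 0.191) was called.

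Other lower calls were at the RAS GTPase-activating protein gene Rasal2 (30.5 to 10.7), the THAP-domain gene Thap4 (32.1 to 10.4), the antisense transcript 4930430O22Rik (60.4 to 20.6) and Gm44772 (36.8 to 12.8). Rasal2 was not called with the fold changes centred on the all-peak median (adjusted p 0.0505) or within GC deciles (adjusted p 0.0605), and Thap4 was not called with GC centring (adjusted p 0.190). A peak whose gene name in the deposited table is a number, nearest to the start of the ubiquitin ligase gene March1, went from 32.0 to 10.1, and was not called with GC centring (adjusted p 0.0627).

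The members that rose furthest also lay at genes of varied function. Akr1c19, an aldo-keto reductase gene, went from 10.2 to 38.0. This was the largest deposited log2 fold change among higher calls with a mean count of at least 20 (1.90, SE 0.43, adjusted p 0.00153). The centre of the Akr1c19 peak was 67% soft-masked as repeats, so it is left out when peaks over 50% soft-masked are removed. Its reads may be placed at other loci, so this peak is uncertain. Cdh6, which encodes a classical cadherin, went from 11.2 to 36.0 (deposited log2 fold change 1.68, SE 0.38, adjusted p 0.00155). Lrrc27 went from 21.6 to 67.6, and its deposited log2 fold change was 1.64 (SE 0.29, adjusted p 2.15e-05). All 3 promoters were more than doubled. Zfp583 went from 14.5 to 39.6, and Prdm8 had a deposited log2 fold change of 1.598 (SE 0.42, adjusted p 0.00829). Trabd2b, a membrane protease that cleaves WNT proteins, went from 16.6 to 42.5, and the adenylate kinase gene Ak1 from 12.6 to 33.3. Herc6, a ubiquitin ligase family gene, went from 13.7 to 35.1. A pair of X-linked promoters were among them, Fndc3c1 (11.4 to 30.5) and Sh3bgrl (14.2 to 36.3).

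Higher calls with the smallest p-values also included the following promoters. Opn3, an opsin gene expressed outside the eye, went from 89.5 to 149.0 with a deposited log2 fold change of 0.74 (SE 0.16, adjusted p 0.00115). Arhgap28, a GTPase-activating protein gene, went from 31.4 to 70.9 (deposited log2 fold change 1.18, SE 0.26, adjusted p 0.00123). D16Ertd472e went from 20.7 to 59.1. The share of members called higher reached 4.36% in the highest decile of the mean count. The median standard error was 0.21 in that decile and 0.70 in the weakest one. The median log2 fold changes were 0.14 and 0.20, so the share of calls does not show larger changes at strong promoters.

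The endoderm label was compared with promoter peaks of marker genes, bearing in mind that an open promoter is not expression. All 12 endoderm markers (Sox17, Foxa2, Foxa1, Gata4, Gata6, Eomes, Gsc, Cer1, Hhex, Cxcr4, Lhx1 and Mixl1) had a shared promoter peak. So had 3 of 6 epiblast markers (not Pou5f1, Nanog and Utf1), 2 of 7 mesoderm markers, 4 of 5 neural markers and 3 of 5 extraembryonic markers. Counting promoter peaks of either list, the numbers were 5 of 6 epiblast, 5 of 7 mesoderm, 5 of 5 neural and 4 of 5 extraembryonic markers. Promoters of genes that mark other cell types were thus open as well. In bulk libraries, a promoter open in fewer cells and one less open in each cell cannot be told apart.

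Of 20 members at 17 listed endoderm factor genes, 1 was called higher and none lower, too few to set against the 1.17% and 0.202% of all members, with a median log2 fold change of -0.07 in the authors' deposited table. At the other 82 peaks assigned to listed endoderm factors, 11 were called lower and none higher, beside 3.79% and 1.47% of all tested peaks. Mixl1 was the promoter called higher, from 41.7 to 83.2 (deposited log2 fold change 0.998, SE 0.24, adjusted p 0.00310). Sox17, an endoderm SOX factor, had 39.1 with DMSO and 39.2 with dTAG13, and the pioneer factor gene Foxa2 41.8 and 42.3. The 95% interval of the log2 fold change was -0.56 to 0.57 for Sox17 and -0.50 to 0.54 for Foxa2. Gsc, a homeobox gene of the organizer, had 40.4 and 39.6 at its stronger peak, and Lhx1, a LIM homeobox gene, had 49.6 and 50.9. Hhex, of the anterior endoderm, had 49.6 and 42.7. Foxa1 had the lowest fold change of the list, 26.4 and 11.9, and was not called in the authors' deposited table (log2 fold change -1.14, SE 0.48, adjusted p 0.142).

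Over 25 gene lists, 1463 members belonged to 1173 listed genes, and 18 were called, 1 lower and 17 higher (1.23%, beside 1.37% of all members tested). The list medians ran from -0.20 to 0.28, and 15 lists had no called member. Of the WNT feedback genes, 1 of 27 members was called: Axin2, a scaffold of the complex that degrades beta-catenin, went from 29.0 to 62.1 (deposited log2 fold change 1.10, SE 0.27, adjusted p 0.00420). The other 105 peaks of that list held 13 lower calls and no higher call, beside 3.79% and 1.47% of all tested peaks. Among 33 members of the NODAL, activin and BMP pathway none was called (median -0.04), nor among 28 of the Hippo and TEAD list (median 0.24), 14 of streak and mesoderm genes (median 0.22) or 17 of pluripotency factors (median 0.06). In the last list Klf5, at 62.2 and 95.9, had a deposited adjusted p of 0.0723 and was called with the all-peak centring (adjusted p 0.0139). The extraembryonic list held the lower call, Ascl2, a basic helix-loop-helix factor of trophoblast and intestinal stem cells, from 31.0 to 10.96 (deposited log2 fold change -1.50, SE 0.42, adjusted p 0.0164). Its median over 11 members was -0.20.

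**Figure D5:**
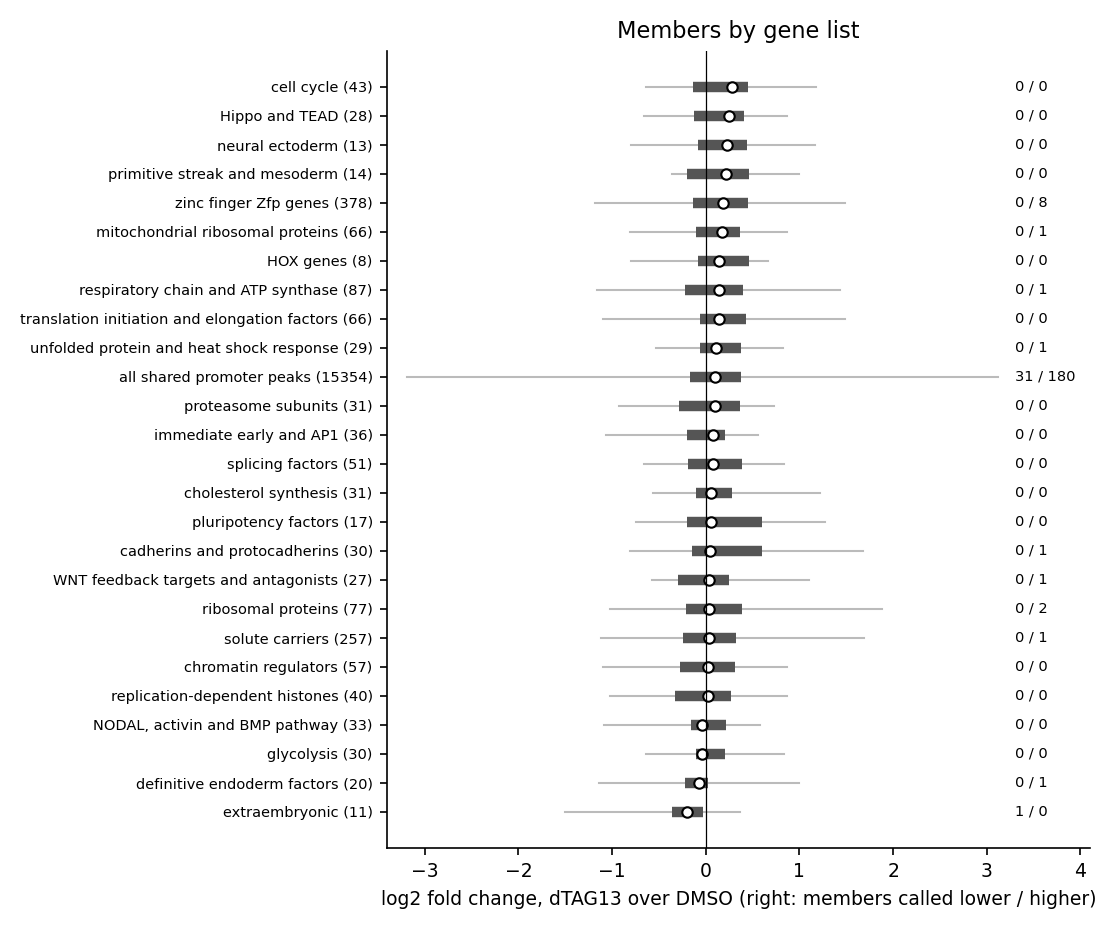
Log2 fold change of dTAG13 over DMSO (horizontal axis) of members by gene list, with the number of members after each name. Circles are medians, thick bars quartiles and thin lines the full range, and the numbers at the right are members called lower and higher. All list medians lie between -0.20 and 0.28, and the Zfp list has the most calls, 8 higher.

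The lists of housekeeping genes held single calls, to be read beside the 1.37% of all members called. Of 77 members at ribosomal protein genes, 2 were called higher, among them Rps23 (9.96 to 27.5, deposited log2 fold change 1.47, SE 0.46, adjusted p 0.0377), and the list median was 0.03. Mitochondrial ribosomal proteins had 1 higher call in 66 members (Mrpl17, 91.7 to 133.0), and the respiratory chain 1 in 87 (Ndufa4, 12.3 to 29.7). Rps23, Mrpl17 and Ndufa4 were not called once the fold changes were centred on the median of all shared peaks (adjusted p 0.0527, 0.108 and 0.0521). The heat shock list had 1 call in 29 members, the factor gene Hsf2 (58.6 to 97.0), whose peak also covers the start of a lincRNA on the other strand. Solute carriers had 1 call in 257 members (Slc9a9, an endosomal sodium-proton exchanger, 6.38 to 20.6), and cadherins 1 in 30 (Cdh6). No member was called at cell cycle genes (43 members, median 0.28), proteasome subunits (31, median 0.10), splicing factors (51, median 0.07), histones (40, median 0.02) or glycolysis (30, median -0.04). The same held for translation factors (66 members), chromatin regulators (57), immediate early and AP1 genes (36), cholesterol synthesis (31), neural genes (13) and HOX genes (8).

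Zfp genes, which encode zinc finger proteins and often lie in clusters of related copies, had 378 members at 288 genes. Of these, 8 were called higher (2.12%) and none lower, with a median of 0.18, beside 1.17% and 0.10 over all members. The 8 were Zfp119b, Zfp444, Zfp583, Zfp317, Zfp551, Zfp738, Zfp868 and Zfp28. Zfp119b went from 16.1 to 40.7 and Zfp444 from 108.2 to 166.8. Zfp28 (79.2 to 122.0) lost its call under all 4 centrings other than that on the all-peak median. Related copies may share reads.

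Shared promoters were set beside the distal peaks of the same genes. Distal here means any peak that the authors' annotation did not place within 1 kb of a gene's start, so peaks just beyond 1 kb are included. Since a member has a peak in both lists by the rule, genes whose promoter peak was lost are not among them. A peak outside promoters was counted here as DMSO-enriched where it was called lower with a log2 fold change of at least 1 in size. It was counted as dTAG13-enriched where it was called higher by the same limit. Of 1966 genes with a DMSO-enriched distal peak and no dTAG13-enriched one, 712 (36.2%) had a shared promoter peak. Of the genes with neither kind of distal peak, 47.3% had one. That class takes in every other gene with a peak, also genes with promoter peaks only. The difference between these shares is thus partly set by how the classes were formed, and nothing is read from it. The 931 members at the 712 genes had a median log2 fold change of 0.09. Of these members, 6 were called lower (0.644%) and 13 higher (1.40%) in the authors' deposited table. For 14104 members at genes with neither kind of distal peak the median was 0.10, with 25 lower (0.177%) and 159 higher (1.13%). The share of lower calls was thus higher at the genes with a DMSO-enriched distal peak, on 6 calls, and this difference was not tested. The 248 members at genes with a distal peak enriched in dTAG13 only had a median of 0.18, with 7 called higher and none lower. The distal peaks were assigned to the nearest gene by the authors, and no contact between them and the promoters was measured.

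Examples were taken in order of the p-value of the distal peak, after its values were seen. In 12 of them the distal log2 fold change lay between -7.04 and -1.82, and that of the gene's promoter peak lay between -1.12 and 1.004, with none called. At Gdpd5, a membrane phosphodiesterase gene, the distal peak (chr7:99424624-99425083) went from 72.8 to 7.90 while the promoter peak 43465 bases away had 75.4 and 67.3. The promoter's deposited log2 fold change was -0.16 (SE 0.21, adjusted p 0.712). At Plekhm3 the distal peak went from 55.8 to 3.86, and the promoter had 25.6 and 23.8. At Ssbp3, a partner of LIM-domain-binding proteins, the distal peak went from 27.2 to 0.215, and the promoter had 33.8 and 34.2. Twsg1, a secreted modulator of BMP, had a distal change from 55.7 to 11.8 with promoter levels of 29.8 and 31.8. The promoter of Sall4, a zinc finger factor of pluripotent cells, had 25.7 and 26.8 beside a distal change from 54.3 to 15.4. In these 5 genes the promoter estimate moved little, and in others it moved in either direction. It was lower at Gm26608, with 30.7 and 14.1 (deposited adjusted p 0.0685), and at Syne3, with 41.6 and 26.6 (deposited adjusted p 0.227). The estimate was higher at Robo1, a SLIT receptor gene, with 13.8 and 27.7 (deposited adjusted p 0.107). So it was at Rps15a, with 15.9 and 26.5 (deposited adjusted p 0.269).

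The authors' table marks some genes as down or up, and its headers do not say in which data. At genes marked down, 396 members had a median log2 fold change of -0.05, beside 0.11 for unmarked members. Of the 396, 4 (1.01%) were called lower (Sema6d, Tph1, Rasal2 and Trerf1) and 2 (0.505%) higher (Gas1 and Tagln2). Over all members the shares were 0.202% lower and 1.17% higher. Over all 2019 peaks of the genes marked down the median was -0.51, beside -0.17 for unmarked peaks, and these include peaks of the DMSO list only, which members exclude by the rule. At genes marked up, 462 members had a median of 0.14, beside 0.10 for members without that mark. All 2120 peaks of those genes had a median of -0.09, beside -0.18 for peaks without it. Of the 462, none was called lower and 6 (1.30%) were called higher (Mixl1, Sh3bgrl, Ak1, Pls3, Tnfrsf21 and Ift57). That share is near the 1.17% of all members.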

How the data were processed

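Per the submitters' processing notes, reads were handled with fastp, Bowtie2, MACS2, featureCounts, HOMER 4.11 and ChIPseeker on mm10. Peak lists were called on the pooled libraries of each group, per the file names. The deposited table gives, per peak, a mean signal over libraries (a normalized count), a log2 fold change with its standard error, a test score and p-values. The deposited score is the ratio of the log2 fold change to its error. For 69128 peaks, two-sided normal p-values were computed from that ratio and adjusted by the Benjamini-Hochberg method. They differed from the deposited adjusted p-values by at most 3.96e-07. No model was fitted here, because no value per library was used. Group levels were derived from the deposited mean and fold change with both groups weighted equally, so they carry no error of their own. The 95% Wilson intervals cover counting over peaks only.

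Start sites came from GENCODE M21, sequences from GRCm38.p6 and promoters (32851, from 250 bases before to 50 after the start) from RefSeq. 9015 of the members' genes matched the RefSeq promoter table. Python 3.11.15, pandas 2.3.3, scipy 1.17.1 and pysam 0.24.0 were used, and functions were tested on simulated data. For sequences, windows with over 30 bases of annotated untranslated region were passed over. The members, gene lists and motifs were chosen with earlier results of these data known. Named genes were called members with a mean count of at least 20 and the largest fold changes or smallest p-values, the strongest members, the called members of the lists and the strongest uncalled member of each. Ssh3, Dbil5, Gm19426 and the genes given beside the marks were named after their values were seen. Some called members are not reported here. Alternatives changed the zero point, threshold, filter, overlap, promoter definition and repeat content.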

Additional observations from a re-analysis of the deposited data

How the results depend on the processing

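No paired analysis was possible because values per library were not used here (the table has a mean and a fold change for each peak), and leaving out each replicate could not be run for that reason. Centred on the median of all peaks, which moved the members' median by 0.18, higher calls rose from 180 to 606 and listed calls from 18 to 76. Centred on the median of all shared peaks there were 63 lower and 98 higher calls, and on the members' median, added after seeing the data, 68 and 91. Within GC deciles 291 members were higher and 38 listed members were called. Within deciles of the mean count there were 48 lower and 116 higher calls. An adjusted p under 0.01 left 15 lower, 42 higher and 7 listed calls, and 0.1 gave 79, 366 and 50. A minimum log2 fold change of 1 left 77 higher and 11 listed calls. Overlap of 50% of both intervals left 13665 members and 12 lower calls. Lower calls among promoters of genes with a DMSO-enriched distal peak (6 as deposited) became 11 and 12 with the shared-peak and members' medians, 3 and 16 at thresholds of 0.01 and 0.1, 3 with a mean count of at least 10, 1 with 50% overlap and 13 with GENCODE starts. The fold change of Gm26917 reversed to 0.13 (recomputed adjusted p 0.000186) with the all-peak median. Leaving out peaks over 50% soft-masked, also added later, gave 30 lower and 174 higher calls. The members' median fold change was above or at 0 in every alternative, which says little about its sign. It is 0 by construction with the members' own median and was 0.01 with the median of all shared peaks. Changes of threshold leave it as it was. Causes were not tested.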

Other observations

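Shared promoters differed by chromosome. The median log2 fold change in the authors' deposited table was lowest on chromosomes 19 (-0.03 over 481 members) and 11 (-0.03 over 1212), and highest on X (0.25 over 413) among chromosomes with more than 1 member. On chromosome 19 there were 2 lower (0.416%) and no higher calls, on 11 there were 3 (0.248%) and 4 (0.330%), and on X none and 8 (1.94%). Over all members 0.202% were called lower and 1.17% higher, and on chromosome 12 1.92% were called higher. Shared peaks outside promoters on chromosomes 19, 11 and X had medians of -0.05, -0.06 and 0.13. The median GC content of the members was 65.5%, 65.0% and 63.0%, and their median mean count 24.6, 22.8 and 17.7. Whether these values bear on the difference was not tested.

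The table also sorts some changed peaks into classes named C1 to C4, which its headers do not define. Shared promoters were 23 of 1091 peaks of C1, 5 of 1508 of C2, 71 of 489 of C3 and 6 of 393 of C4. They were 21.8% of all peaks and 211 of the 3638 called peaks. The rule leaves out promoter peaks of 1 list only, which limits these counts in advance.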
